A study of Mus musculus with 18 samples.

Results

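Loxl4, Plau, Wfs1, Tcf7l2, Ajuba, Pth1r, Nudt17, Rcan3, Ankrd29 and Cd59a are 10 genes, out of 46418 gene symbols found in all 18 tables. They were picked from the largest protein-coding rises in Zfp541 knockout (KO) material at postnatal day 18 (P18), in whole testis or spermatocytes. The P18 differences between genotypes are therefore what chose the genes, and they are given below as a description with no test. The differences at P14 played no part in the choice and were tested.

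All mice were C57BL/6J males. Poly(A) RNA was measured in 6 groups of 3 libraries: testicular cells at P14 and at P18 and spermatocytes at P18, each from Zfp541+/- (Het) and Zfp541-/- (KO) mice. The controls therefore carried 1 disrupted allele of Zfp541. The submitters call the 3 libraries of a group biological replicates; how the spermatocytes were isolated, and whether each library came from a separate mouse, are not given in the sources used here, so p-values measure the spread between these libraries.

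The 10 genes lie at 10 separate places (GRCm38): Loxl4 on chromosome 19 at 42593982 to 42612813, minus strand, Tcf7l2 on the same chromosome at 55741820 to 55933654, plus strand, Plau on chromosome 14 at 20836660 to 20843385, plus strand, and Ajuba on chromosome 14 at 54567472 to 54577558, minus strand. Wfs1 is on chromosome 5 at 36966104 to 36989205, Pth1r on chromosome 9 at 110722085 to 110747145, Nudt17 on chromosome 3 at 96706067 to 96708562, Rcan3 on chromosome 4 at 135412308 to 135433853 and Ankrd29 on chromosome 18 at 12252362 to 12305797, all on the minus strand. Cd59a is on chromosome 2 at 104095801 to 104115354, plus strand. The 10 are thus on 8 chromosomes, all autosomes.

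Spermatocytes are the germ cells that pass through meiosis. In the first wave of spermatogenesis in the mouse they advance together, so that older juvenile testes hold later meiotic stages, and the pachytene stage switches on a large set of genes for the spermatid to come. ZFP541 is a zinc-finger protein with ELM2 and SANT domains made in male germ cells. Loxl4 encodes a lysyl oxidase that cross-links collagen and elastin, and Plau encodes urokinase, a secreted protease that activates plasminogen. Pth1r encodes the receptor for parathyroid hormone and its related peptide, and Cd59a a membrane-anchored inhibitor of the complement membrane attack complex. Wfs1 encodes wolframin, a protein of the endoplasmic reticulum. Tcf7l2 encodes a transcription factor of the Wnt and beta-catenin pathway, Ajuba a LIM-domain scaffold that restrains the LATS kinases of the Hippo pathway, and Rcan3 a regulator of the phosphatase calcineurin. Nudt17 belongs to the Nudix hydrolases, which cleave nucleoside diphosphates linked to another group, and Ankrd29 encodes a little-studied ankyrin-repeat protein.

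The stretches just upstream of the start sites differed widely among the genes. Of the 10, 8 had an entry in the RefSeq promoter table (GRCm38.p6), and Plau and Ankrd29 did not. In the 250 bases before the RefSeq start, GC content ran from 44.8% with 0 CpG in Cd59a to 76.0% with 27 CpG in Loxl4, with a median of 62.8% against 52.4% over 32817 promoters. Loxl4, Pth1r and Cd59a are printed to show this range, as 200 bases each, 5′ to 3′ on the strand of the gene, ending at or just before the start of the gene. Capitals mark the GC box GGGCGG in Loxl4 and the motifs CCAAT and AACTG in Pth1r; the Cd59a stretch holds none of the motifs searched. Loxl4 lies at chr19:42612814-42613013 (minus strand), Pth1r at chr9:110747146-110747345 (minus strand) and Cd59a at chr2:104095601-104095800 (plus strand).
Loxl4: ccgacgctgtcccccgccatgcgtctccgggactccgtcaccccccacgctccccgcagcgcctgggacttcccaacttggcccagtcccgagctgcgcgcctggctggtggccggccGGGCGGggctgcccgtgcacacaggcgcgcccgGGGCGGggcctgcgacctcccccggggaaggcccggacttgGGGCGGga
Pth1r: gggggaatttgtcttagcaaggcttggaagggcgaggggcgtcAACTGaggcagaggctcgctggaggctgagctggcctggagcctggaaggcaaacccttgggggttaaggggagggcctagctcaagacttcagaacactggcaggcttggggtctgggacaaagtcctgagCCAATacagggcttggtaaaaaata
Cd59a: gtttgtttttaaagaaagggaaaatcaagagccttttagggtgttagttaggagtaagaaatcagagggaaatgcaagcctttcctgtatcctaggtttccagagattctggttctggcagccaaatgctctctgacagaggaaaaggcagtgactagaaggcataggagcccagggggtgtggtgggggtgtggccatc

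No motif was common to the 8 promoters. Each motif was searched on both strands of the 250 bases. The GC box GGGCGG was in 4 of 8 (Loxl4, Wfs1, Tcf7l2 and Rcan3) and in 32.7% of all promoters. CCAAT was in 3 of 8 (33.8% of all), AACTG, the core of the MYB motif, in 3 of 8 (39.1%), and the TCF/LEF words CTTTGAT or CTTTGTT in 1 of 8, Ajuba (8.1%). TATAAA was in 0 of 8 (12.4% of all), the E-box CACGTG in 0 (6.0%), the CRE word TGACGTCA in 0 (1.5%) and the RFX word GTTGCC in 0 (10.4%). These are descriptions of letters in 1 window. For Wfs1, 223 of the 250 bases lie inside the gene as drawn by GENCODE M21, and for Rcan3 48.

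Levels below are RPKM (P14 testis and P18 spermatocytes) or FPKM (P18 testis), that is reads or fragments per kilobase of gene per 1000000, rescaled to a common footing. Each comparison is made within its own set of 6 libraries; the 3 sets were normalised separately, so a level set across them is a rougher guide. Total reads per library, read back from the deposited values, were 17.96 to 21.12 M (megareads) at P14, 12.81 to 16.95 M for P18 testis and 9.26 to 18.31 M for spermatocytes. Zfp541 itself, the targeted gene, stood at 8.18 or more in Het libraries and at 5.37 or less in KO libraries at P14 (limma adjusted p = 0.075). It was at 19.4 to 26.8 against 8.3 to 10.1 in P18 testis (adjusted p = 0.00402) and at 33.2 to 58.9 against 11.9 to 13.8 in spermatocytes (adjusted p = 0.0008), so transcript remained in KO and the groups did not overlap. The libraries labelled spermatocytes held Sertoli cell markers (15 genes) at a summed 56.7 to 92.6 in Het and 46.2 to 77.5 in KO, against 988 to 1230 in Het testis at P18. No marker gene was at 0 in all libraries. Pachytene markers (12 genes) summed to 1140 to 2580 in Het spermatocytes and 51.3 to 70.5 in KO, whereas leptotene and zygotene markers (12 genes) summed to 816 to 1020 and 860 to 1020. In bulk RNA, a change in the number of cells of a type and a change in RNA per cell cannot be told apart.

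**Figure D1:**
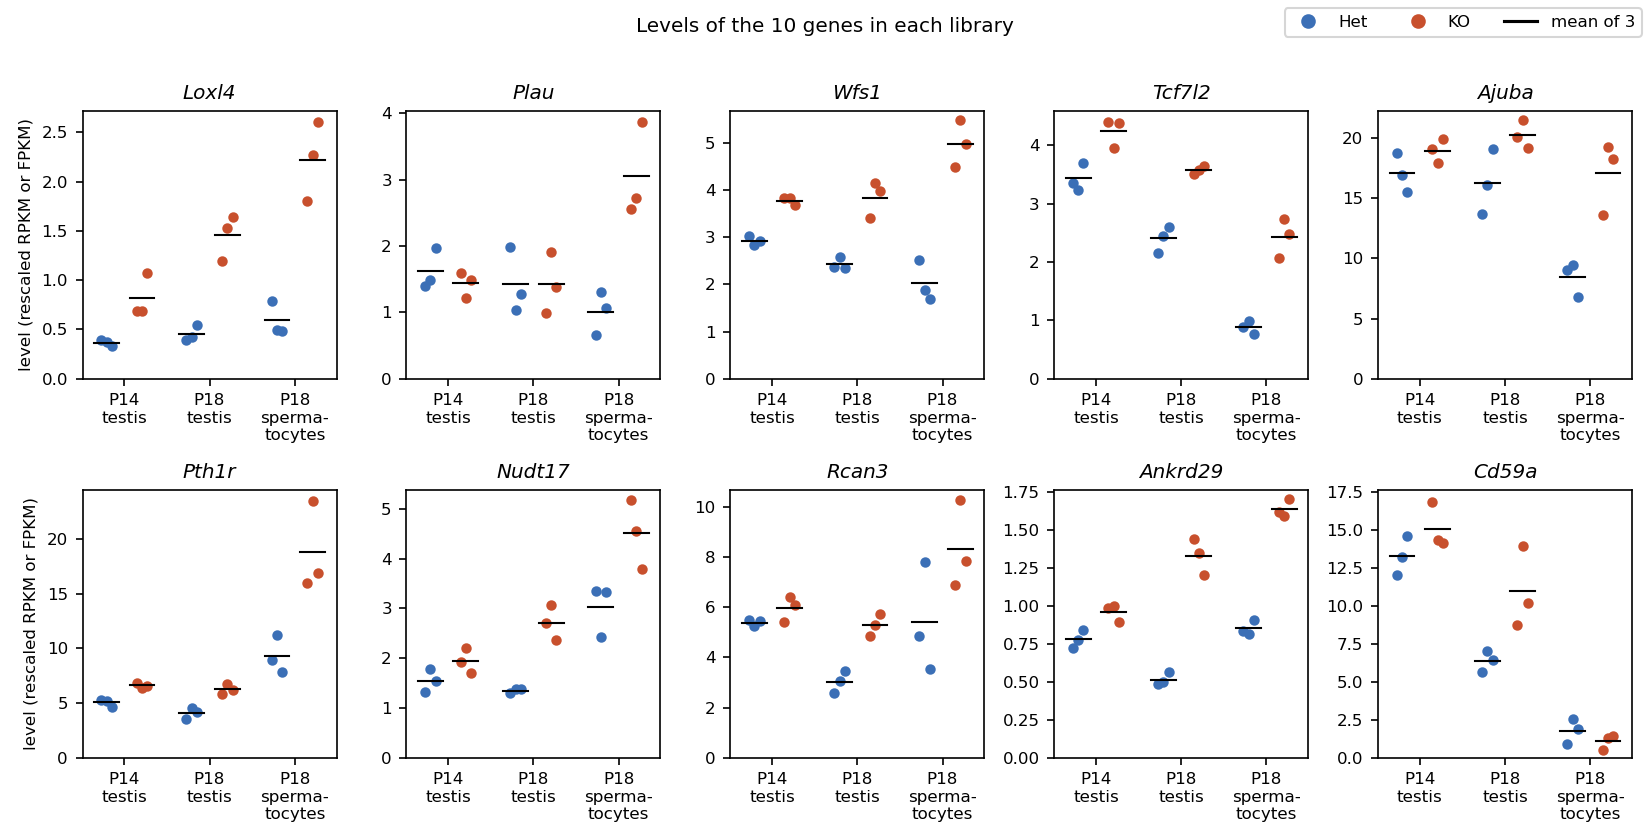
Level (rescaled RPKM or FPKM, linear axis from 0) of each of the 10 genes in each of the 18 libraries, Het in blue and KO in red, with a line at the mean of 3. Cd59a is lowest in spermatocytes, with 1.78 in Het and 1.08 in KO, while Pth1r is highest there, with 9.35 in Het and 18.8 in KO.

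Loxl4 and Plau act outside the cell, on the matrix and in its breakdown. Loxl4 was measured at 0.393, 0.422 and 0.543 in Het testis at P18 and at 1.19, 1.53 and 1.64 in KO. In spermatocytes it was at 0.789, 0.498 and 0.486 in Het and 1.8, 2.27 and 2.6 in KO. Every KO library lay above every Het library in both sets, and the KO mean was 3.21 times the Het mean in testis and 3.76 times in spermatocytes. On the scale of log2(level + 0.5) the differences were 1.03 ± 0.20 and 1.32 ± 0.22 (SE of the fit, 3 and 3 libraries), and this scale understates low genes such as Loxl4. The Het values rest on few reads, 27 to 41 in testis and 19 to 43 in spermatocytes. The filter for testing asks for a level of at least 1 in at least 3 libraries of a set, and Loxl4 met it at P18 only through its KO libraries.

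Plau had values of 0.653, 1.31 and 1.06 in Het spermatocytes and 2.55, 2.73 and 3.87 in KO. The groups did not overlap, and the log2 difference was 1.24 ± 0.24. In P18 testis it was at 1.99, 1.04 and 1.27 in Het and 0.988, 1.91 and 1.38 in KO. Here the groups overlapped throughout, and the ratio of the means was 0.994. Plau was thus among the chosen genes on its spermatocyte values alone.

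Pth1r and Cd59a sit at the cell surface, and their levels ran in opposite directions between testis and spermatocytes. Pth1r was at 3.56, 4.55 and 4.21 in Het testis at P18 and 5.84, 6.75 and 6.15 in KO, and at 8.96, 11.2 and 7.88 in Het spermatocytes and 16.0, 23.5 and 16.9 in KO. All KO libraries were above all Het libraries in both sets, with log2 differences of 0.55 ± 0.11 and 0.96 ± 0.19. Pth1r overlaps the gene Myl3 on the opposite strand over 5285 bases, and whether reads were counted by strand is not stated in the sources used here. Myl3 was low, with group means of 0.207 to 0.515 over the 6 groups, and 1.68% of the 50-base words of Pth1r occur in it.

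Cd59a was at 5.62, 7.05 and 6.41 in Het testis at P18 and 8.76, 13.9 and 10.2 in KO, a log2 difference of 0.72 ± 0.17 with no overlap. In spermatocytes its values were 0.896, 2.56 and 1.9 in Het and 0.533, 1.27 and 1.43 in KO. There the groups overlapped and the KO mean was the lower one (log2 difference −0.51 ± 0.37, on 12 to 52 reads per library). Its mean difference was thus positive in testis and negative in spermatocytes. Leaving out 1 library at a time gave spermatocyte values of −0.83 (without Het replicate 1) to −0.23 (without KO replicate 1). Its neighbour and paralogue Cd59b shares 70 of the 1811 50-base words of Cd59a (3.87%). Cd59b stood at 0.853 ± 0.215 in Het and 0.76 ± 0.177 in KO testis at P18 (SD, n = 3), or 14 to 23 reads per library.

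Wfs1 and Tcf7l2 showed the same order of groups. Wfs1 was at 2.36, 2.58 and 2.34 in Het testis at P18 and 3.4, 4.14 and 3.98 in KO. In spermatocytes it was at 2.51, 1.87 and 1.69 in Het and 4.48, 5.48 and 4.98 in KO. The KO libraries stood apart from the Het libraries in both sets, by 0.57 ± 0.11 and 1.13 ± 0.17 on the log2 scale.

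Tcf7l2 was at 2.16, 2.45 and 2.6 in Het testis at P18 and 3.51, 3.57 and 3.64 in KO, and at 0.886, 0.981 and 0.765 in Het spermatocytes and 2.06, 2.73 and 2.48 in KO. Again no library of one genotype reached the range of the other. The log2 differences were 0.49 ± 0.10 and 1.08 ± 0.18, and the KO mean in spermatocytes was 2.76 times the Het mean. In spermatocytes Tcf7l2 met the filter only through its KO libraries.

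Ajuba, the scaffold of the Hippo pathway, was the most abundant of the 10 in testis at P18. It was at 13.7, 16.1 and 19.1 in Het and 20.1, 21.5 and 19.2 in KO there, so the highest Het library lay just under the lowest KO library. In spermatocytes it was at 9.07, 9.45 and 6.79 in Het and 13.6, 19.3 and 18.3 in KO. The groups were well separated there, and the log2 difference was 0.97 ± 0.18 against 0.32 ± 0.12 in testis. The testis value was 0.21 without Het replicate 1. A share of 1.81% of the 50-base words of Ajuba occurs in other genes.

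Rcan3 was at 2.58, 3.06 and 3.45 in Het testis at P18 and 4.86, 5.3 and 5.74 in KO, with no overlap and a log2 difference of 0.72 ± 0.12. In spermatocytes it was at 4.87, 7.82 and 3.54 in Het and 6.9, 10.3 and 7.84 in KO. Het replicate 2 there exceeded KO replicate 1, so the groups overlapped. The spermatocyte difference was 0.63 ± 0.27 and ranged from 0.38 without Het replicate 3 to 0.90 without Het replicate 2.

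Nudt17 and Ankrd29 stood out in testis. Nudt17 was at 1.29, 1.37 and 1.37 in Het testis at P18 and 2.7, 3.06 and 2.37 in KO, and at 3.35, 2.42 and 3.33 in Het spermatocytes and 5.18, 4.55 and 3.79 in KO. No KO library overlapped a Het library in either set. The log2 difference was 0.80 ± 0.13 in testis and 0.50 ± 0.18 in spermatocytes. The end of Nudt17 shares 4 bases with Pias3 on the opposite strand. Pias3, an E3 ligase for SUMO named here because of that overlap, rose in spermatocytes from 4.84 ± 0.414 to 7.6 ± 0.232 (log2 difference 0.60 ± 0.12, limma adjusted p = 0.00685, n = 3 and 3).

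Ankrd29 was at 0.482, 0.498 and 0.562 in Het testis at P18 and 1.44, 1.35 and 1.2 in KO. In spermatocytes it was at 0.836, 0.815 and 0.909 in Het and 1.62, 1.59 and 1.7 in KO. The separation was complete in both sets, with KO means 2.59 and 1.92 times the Het means and log2 differences of 0.85 ± 0.18 and 0.66 ± 0.18. Ankrd29 also met the filter at P18 only through its KO libraries.

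**Figure D2:**
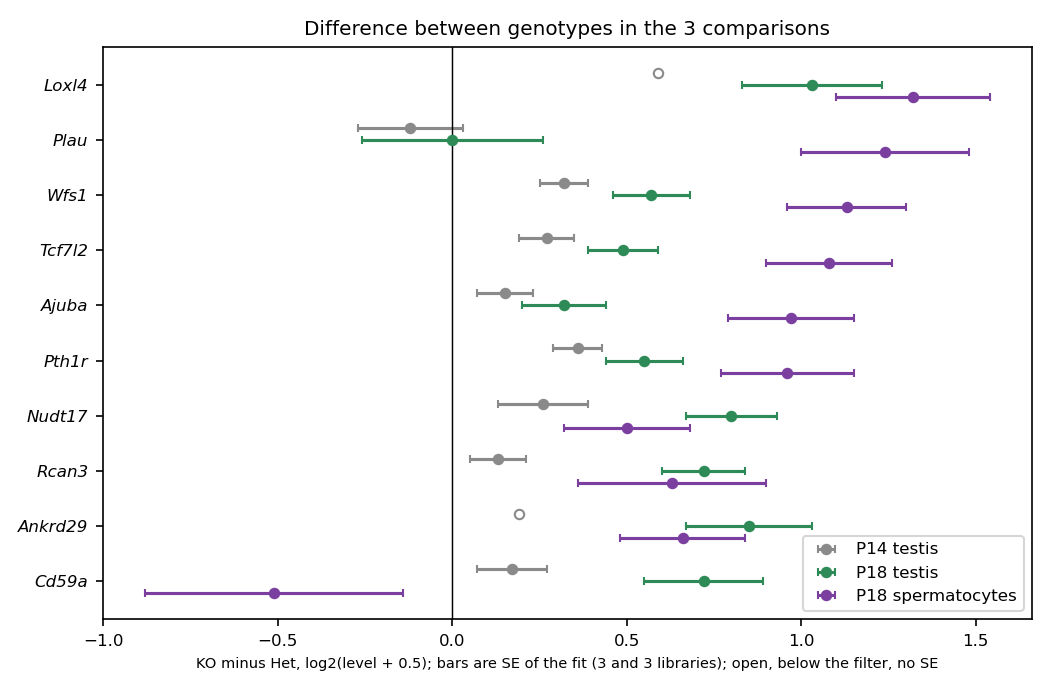
KO minus Het difference of log2(level + 0.5) for each of the 10 genes, with bars for the SE of the fit (3 and 3 libraries), in P14 testis (grey), P18 testis (green) and P18 spermatocytes (purple); open points mark Loxl4 and Ankrd29 at P14, which were below the filter. At P14, 9 of the 10 lie above 0, and Cd59a is the 1 gene below 0 in spermatocytes.

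In P18 testis 9 of the 10 genes had all KO libraries above all Het libraries (Plau overlapped), where 23.2% of the genes tested did so. In spermatocytes 8 of the 10 did (Rcan3 and Cd59a overlapped), where the share of genes tested was 19.9%. Nothing is read from these counts, since the same values chose the genes. The median log2 difference of the 10 was 0.64 in testis and 0.96 in spermatocytes, against 0.04 and −0.05 over all genes tested. To place the choice, protein-coding genes were ordered by the log2 difference. The limma threshold, groups that did not overlap and 5 or more reads per 1000000 in the higher group were required. This order does not give the 10 alone, since genes that were not picked stand between them. It describes where the picked genes stood and is no test of them. In testis Loxl4 stood at place 1, Ankrd29 at 2, Nudt17 at 4, Cd59a at 6 and Rcan3 at 7. Wfs1, Pth1r and Tcf7l2 stood at 34, 38 and 88 of 1075 there, and Plau and Ajuba were not in the order. In spermatocytes Loxl4 stood at place 1, Plau at 2, Wfs1 at 4, Tcf7l2 at 6, Ajuba at 8 and Pth1r at 9. Ankrd29 stood at 149 of 1252 there, and Nudt17, Rcan3 and Cd59a were not in the order.

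The 3 largest rises outside the 10 in each P18 set held nearby places, 3, 5 and 8 in testis and 3, 5 and 7 in spermatocytes. In testis these were Ctcfl, the germline relative of the insulator protein CTCF (3.22 in Het, 6.04 in KO, log2 difference 0.81), Zglp1 (2.51 and 4.62, 0.77) and Ube2cbp (1.49 and 2.75, 0.72). In spermatocytes they were Gm11808 (4.28 and 9.87, 1.18), Sohlh2, a transcription factor of spermatogonia (28.2 and 61.0, 1.10), and Mnd1, a cofactor of meiotic recombination (11.8 and 23.9, 0.99). Just inside the choice stood Rcan3 in testis, at 0.72, and Pth1r in spermatocytes, at 0.96.

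At P14, before the differences that chose them, the 10 genes were mostly a little higher in KO, but none passed the test. Of the 10, 8 were tested and 0 were called by limma at an adjusted p under 0.05, in a comparison where 0.0111% of 18032 genes were called higher and 0.166% lower. Unadjusted p-values under 0.05 were reached by 3 of the 8, Pth1r, Wfs1 and Tcf7l2, all higher in KO, where 2.67% of genes reached this in that direction. The median difference of the 8 tested and 2 untested genes was 0.22 on the log2 scale, against 0.0 for all genes tested, and 9 of the 10 differences were positive.

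Pth1r at P14 was at 5.3, 5.23 and 4.62 in Het and 6.84, 6.41 and 6.58 in KO. The groups did not overlap, and the log2 difference of 0.36 ± 0.07 had a p of 0.00168 (limma adjusted p = 0.136). Over the alternative fits its adjusted p ran from 0.0562 to 0.457. Wfs1 was at 3.02, 2.83 and 2.91 in Het and 3.82, 3.83 and 3.68 in KO. Its Het and KO libraries were also separate, with a difference of 0.32 ± 0.07 and a p of 0.00262 (limma adjusted p = 0.171; 0.0878 to 0.544 over the alternatives). Tcf7l2 was at 3.36, 3.23 and 3.7 in Het and 4.4, 3.95 and 4.38 in KO. These did not overlap either (0.27 ± 0.08, limma adjusted p = 0.356; 0.0873 to 0.706 over the alternatives).

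Loxl4 at P14 was at 0.389, 0.376 and 0.334 in Het and 0.683, 0.69 and 1.07 in KO, on 25 to 80 reads per library. It was below the filter, as was Ankrd29, at 0.721, 0.776 and 0.837 in Het and 0.983, 1.0 and 0.891 in KO. For both genes each KO library was above each Het library, and a fit with no filter gave limma adjusted p = 0.339 for Loxl4 (log2 difference 0.59) and 0.734 for Ankrd29 (0.19). In all, 5 of the 10 had KO above Het in every library at P14, where 6.64% of genes tested and 4.63% of genes above 0 in any library did.

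The other 5 overlapped at P14. Ajuba was at 18.8, 16.9 and 15.5 in Het and 19.1, 17.9 and 19.9 in KO (0.15 ± 0.08, limma adjusted p = 0.647). Cd59a was at 12.0, 13.2 and 14.6 in Het and 16.8, 14.3 and 14.1 in KO (0.17 ± 0.10, adjusted p = 0.649). In both of these abundant genes the lowest KO library fell within the range of Het. Nudt17 was at 1.31, 1.79 and 1.53 in Het and 1.93, 2.2 and 1.71 in KO (0.26 ± 0.13, limma adjusted p = 0.626). Rcan3 was at 5.48, 5.24 and 5.44 in Het and 5.41, 6.41 and 6.08 in KO (0.13 ± 0.08, adjusted p = 0.66). Plau, at 1.4, 1.48 and 1.97 in Het and 1.6, 1.22 and 1.49 in KO, was the only one of the 10 with a lower KO mean at P14 (−0.12 ± 0.15, limma adjusted p = 0.853).

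The genes differed in how their level depended on age and cell preparation. These ratios compare sets that were normalised separately and are given without a test. In Het, levels in spermatocytes were above those in P18 testis with no overlap for Pth1r (2.28 times), Nudt17 (2.26), Rcan3 (1.79) and Ankrd29 (1.66). They were below for Cd59a (0.281 times), Tcf7l2 (0.365) and Ajuba (0.518), and overlapped for Loxl4, Plau and Wfs1. In KO, Plau, Loxl4 and Wfs1 were also above in spermatocytes (2.14, 1.53 and 1.3 times), and Cd59a was at 0.0984 times its testis level. Cd59a, the complement inhibitor, thus had the lowest ratio of spermatocytes to testis among the 10 in both genotypes.

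From P14 to P18 the Het testis levels of 6 genes were lower with no overlap: Cd59a, Rcan3, Ankrd29, Tcf7l2, Pth1r and Wfs1, at 0.479, 0.562, 0.661, 0.701, 0.814 and 0.831 times. Loxl4 in Het was at 1.24 times at P18, with the groups only just apart. Its highest P14 value was 0.389 and its lowest P18 value 0.393, on 29 and 27 reads, so no change is read from this. Nudt17, Plau and Ajuba overlapped. In KO testis Loxl4, Nudt17 and Ankrd29 were higher at P18 (1.78, 1.39 and 1.39 times), and Cd59a and Tcf7l2 were lower (0.731 and 0.842). The other 5 overlapped in KO, Rcan3 at 0.888 times among them. Cd59a and Tcf7l2 were thus lower at P18 in both genotypes. For Rcan3 the P14 level in Het (5.39 ± 0.126, SD, n = 3) was close to that of KO at P18 (5.3 ± 0.442), while Het at P18 was at 3.03 ± 0.436. For Plau, Ajuba and Ankrd29 the P14 values did not fall on whole reads with the annotated gene length while the P18 values did, so the length used may differ between these ages. For Tcf7l2 the values of all 3 sets did not fall on whole reads.

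**Figure D3:**
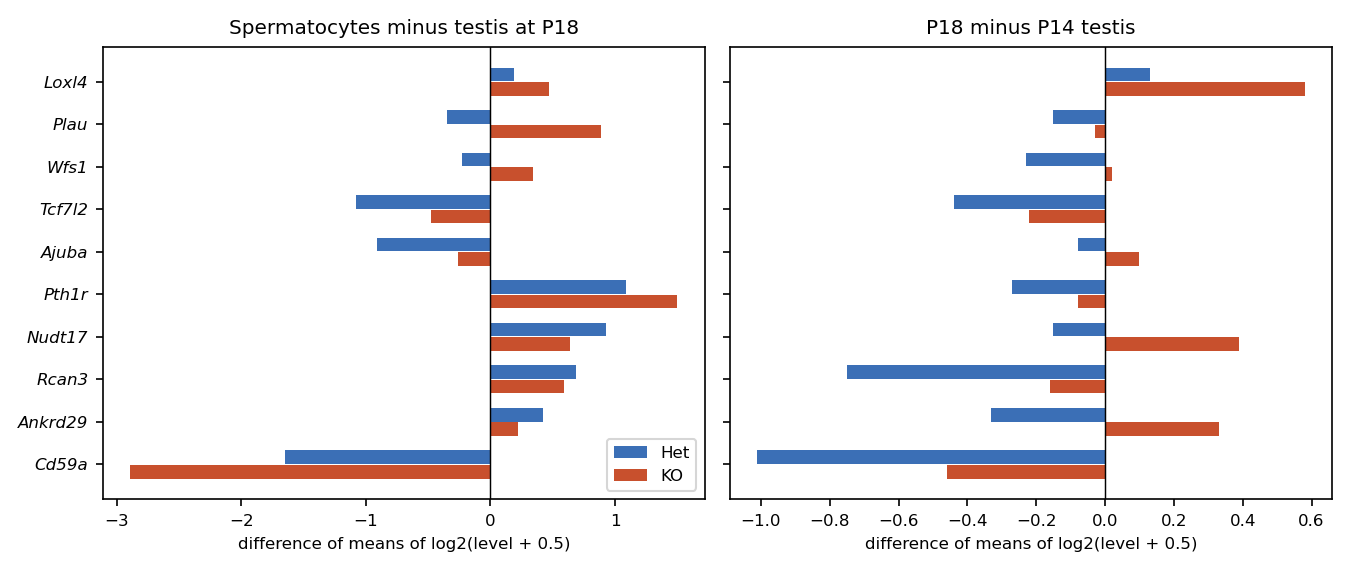
Difference of the mean log2(level + 0.5) between P18 spermatocytes and P18 testis (left) and between P18 and P14 testis (right), for Het (blue) and KO (red), with no error drawn because the sets were normalised separately. Cd59a has the longest bars to the left in the first panel, and the red bars of Loxl4, Nudt17 and Ankrd29 point to the right in the second.

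Across the 18 libraries the 10 genes did not share a single pattern. As a description over the 18 libraries, which share age, cell preparation and genotype, Pearson's r of log2 levels was 0.92 for Tcf7l2 with Ajuba, 0.88 for Loxl4 with Ankrd29, 0.87 for Pth1r with Nudt17 and −0.73 for Pth1r with Cd59a. The genes most like each one, among 19799 genes, were Rras (r = 0.986), Tcf3 (0.984) and Adam15 (0.979) for Pth1r, and Kcnd3 (0.987), Anxa1 (0.985) and Htra3 (0.985) for Cd59a. For Tcf7l2 they were Rab34 (0.979), Zbtb38 (0.975) and Akt1 (0.969), and for Ajuba Marcksl1 (0.974), Plekha7 (0.972) and Daglb (0.953). Rcan3 was most like Zfp185 (0.953), Nes (0.942) and Kctd6 (0.938), and Nudt17 most like Tmem59 (0.944), Gm4969 (0.938) and Myh7b (0.932). The best matches were looser for Wfs1 (Gys1 0.918, Pias3 0.905, Tcf25 0.905), Ankrd29 (Six5 0.912, Fam81a 0.91, Actn4 0.886) and Loxl4 (Sipa1l3 0.906, Smarcd3 0.902, D330041H03Rik 0.896). Plau matched least well (Lynx1 0.785, Notch3 0.769, Gm27299 0.758).

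The other genes of the pathways to which the 10 belong rose in some lists and fell in others. Of 144 such genes in 9 lists, 120 were tested in P18 testis, where 15 rose and 13 fell, and 110 in spermatocytes, where 22 rose and 15 fell. Over all genes tested, 6.9% rose and 17.4% fell in testis and 9.24% rose and 25.5% fell in spermatocytes. In spermatocytes 26.6% of all calls were higher, and 54.3% with the values as deposited, which moves the median of all genes from −0.05 to 0.17. In testis these shares were 28.4% and 46.4%. The median difference of the listed genes was 0.17 in testis and 0.12 in spermatocytes, against 0.04 and −0.05 for all genes tested. Leaving out 1 library moved these counts. The testis rises became 0 (Het library 2 or KO library 2), 1 (KO library 3), 3 (Het library 1 or KO library 1) or 19 (Het library 3). The testis falls became 4 (Het library 2), 6 (KO library 2), 7 (KO library 1 or 3), 9 (Het library 1) or 12 (Het library 3). The spermatocyte rises became 16, 20 and 14 without Het library 1, 2 and 3 and 12, 5 and 6 without KO library 1, 2 and 3. At P14, 120 were tested and 0 passed.

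The Wnt and TCF list held the most genes that rose. In spermatocytes 9 of 16 tested rose and 1 fell, with a median of 0.39. The largest rise was that of Tle3, a corepressor that binds TCF proteins, from 12.6 ± 1.54 to 20.7 ± 0.427 (log2 difference 0.70 ± 0.11, limma adjusted p = 0.00324, n = 3 and 3). Among the paralogues of Tcf7l2, named after their values were seen, Tcf7 rose from 24.0 ± 1.94 to 35.7 ± 3.04 (0.56 ± 0.11, limma adjusted p = 0.00712). Tcf7l1 rose from 3.96 ± 0.533 to 6.61 ± 0.854 (0.67 ± 0.15, adjusted p = 0.014), a call that ended without KO replicate 2 (adjusted p = 0.0638) or KO replicate 3 (0.0616). Lef1, the fourth member of the family, fell from 8.0 ± 4.48 to 0.824 ± 0.16 (−2.57 ± 0.34, limma adjusted p = 0.00144). The count of 9 rises became 5 without Het replicate 3, 4 without KO replicate 1 and 2 without KO replicate 2 or 3, and 4 with no filter and 14 with the values as deposited. In P18 testis 5 of 17 tested rose and 1 fell, Lef1 (4.31 ± 2.26 to 0.419 ± 0.0496, −2.28 ± 0.34, limma adjusted p = 0.00747). The count of 5 became 0 when Het library 1 or 2 or KO library 2 or 3 was left out, and 1 when KO library 1 was. In testis Lef1 passed the filter through its 3 Het libraries and was not tested without any of them.

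The list around Rcan3, calcineurin with calmodulin and the NFAT factors, had more falls than rises. So had all genes tested, of which 25.5% fell and 9.24% rose in spermatocytes and 17.4% fell and 6.9% rose in testis. In spermatocytes 5 of 12 tested fell and 1 rose, with a median of −0.40, and in testis 5 of 14 fell and 1 rose. Ppp3r2, the calcineurin B subunit of the testis, fell from 45.9 ± 26.2 to 0.551 ± 0.297 in spermatocytes (−5.37 ± 0.38, limma adjusted p = 0.00013) and from 25.4 ± 13.6 to 0.511 ± 0.158 in testis (−4.56 ± 0.37, adjusted p = 0.00353). Ppp3r2 was not tested without any 1 Het library of either set, since its KO libraries did not meet the filter. Other falls in spermatocytes, named after their values were seen, included those of the catalytic subunits Ppp3ca (12.4 to 3.43) and Ppp3cc (53.4 to 21.7) and of the calmodulin gene Calm2 (626 to 300.0), with limma adjusted p = 0.00069, 0.00228 and 0.00327. The catalytic subunit Ppp3cb did not pass (15.4 and 15.5, adjusted p = 0.938). Ppp3r1, the widely expressed B subunit, rose in spermatocytes from 14.7 ± 2.54 to 22.3 ± 2.72 (0.59 ± 0.15, adjusted p = 0.0226), a call that ended without KO replicate 2 (0.0874) or KO replicate 3 (0.0568). The paralogue Rcan1 was at 10.7 in Het and 8.32 in KO spermatocytes and did not pass (adjusted p = 0.0598). Of the testis falls, 2 were left without Het replicate 2 and 3 without KO replicate 1 or KO replicate 2.

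Around Ajuba, 3 of 18 tested Hippo genes rose and 2 fell in spermatocytes. Wtip, a paralogue of Ajuba, rose from 15.6 ± 1.46 to 23.3 ± 1.62 (0.57 ± 0.11, limma adjusted p = 0.00656), and Sav1, the adaptor of the MST kinases, fell from 42.9 ± 9.96 to 17.2 ± 0.938 (−1.27 ± 0.17, adjusted p = 0.00148). The third paralogue, Limd1, was at 2.99 and 3.75 and did not pass (adjusted p = 0.164), but did with the values as deposited. The count of 3 rises became 1 without KO replicate 2 or KO replicate 3 and 10 with the values as deposited. In testis 0 of 18 rose and 1 fell, Sav1 (25.8 ± 4.25 to 14.9 ± 0.684, −0.76 ± 0.12, limma adjusted p = 0.00827).

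Around Pth1r, 3 of 11 tested genes of its signalling rose and 0 fell in spermatocytes, led by Arrb2, an arrestin that binds the activated receptor (12.0 ± 0.886 to 19.4 ± 1.37, 0.67 ± 0.10, limma adjusted p = 0.00271). The 3 became 1 when Het library 1 or 3 or KO library 2 or 3 was left out. Of the ligand genes of the receptor, Pthlh was at 0 in all spermatocyte libraries and Pth averaged 0.0519 in Het and 0.0832 in KO. The related receptor gene Pth2r averaged 0.0655 and 0.105. Pth2, whose peptide acts on that related receptor, was at 13.1 in Het and 11.8 in KO spermatocytes and did not pass (limma adjusted p = 0.542). In testis 2 of 12 rose and 0 fell, and 0 rose without Het replicate 1 or 2 or without any 1 KO library.

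The list of urokinase and plasminogen activation had 3 of 7 tested genes that rose in P18 testis and 0 that fell. They were S100a10 (33.6 ± 2.71 to 43.1 ± 0.869, log2 difference 0.36 ± 0.07, limma adjusted p = 0.0179), its partner in plasminogen binding Anxa2 (31.9 to 39.3) and the protease inhibitor gene Serpina5 (log2 difference 0.34). The count of 3 became 0 without Het library 2 or KO library 2 and 1 without KO library 1 or 3. In spermatocytes 1 of 6 rose, Serpine2, an inhibitor of urokinase (2.47 ± 0.356 to 4.24 ± 0.471, 0.68 ± 0.16, limma adjusted p = 0.0147), a call that ended without KO library 2 (0.0704) or 3 (0.0519). S100a10, Anxa2 and Serpina5 did not pass in spermatocytes with all libraries, at log2 differences of −0.33, −0.54 and −0.37. The urokinase receptor gene Plaur was low, at group means of 0.229 and 0.335 in spermatocytes.

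Around Loxl4, 2 of 11 tested genes of the matrix list rose in spermatocytes and 0 fell: Fn1, fibronectin (means of 28.8 and 40.0, log2 difference 0.48 ± 0.13, limma adjusted p = 0.0253), and Efemp2 (7.15 to 9.99). The count of 2 became 0 without KO library 2 and 1 without Het library 1 or 3 or KO library 1 or 3. In testis 0 of 12 passed. Of the other lysyl oxidases, Lox, Loxl1 and Loxl3 passed in no comparison, with log2 differences in spermatocytes of −0.35, −0.13 and 0.05 (0.11, 0.15 and 0.18 in P18 testis), and Loxl2 was below the filter in spermatocytes. The sign was not stable for Loxl1 in spermatocytes, at 0.08 with the values as deposited, and for several of these genes without 1 library.

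Around Wfs1, Eif2ak3, the stress-sensing kinase PERK of the endoplasmic reticulum, rose in spermatocytes (3.66 ± 0.417 to 5.97 ± 0.451, log2 difference 0.64 ± 0.14, limma adjusted p = 0.01), alone among 13 tested genes of its list. This call ended without KO library 2 (0.0511), and with the values as deposited 5 genes of the list rose. In testis 2 of 13 rose and 1 fell; the 2 became 0 without Het library 1 or 2 or any 1 KO library, and the 1 became 0 without Het library 2 or any 1 KO library.

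Of 21 Nudix genes listed, 18 were tested in spermatocytes, where 6 fell and 1 rose, Nudt8 (log2 difference 0.59 ± 0.14, limma adjusted p = 0.0158). Over all genes tested there, 25.5% fell and 9.24% rose, so more falls than rises is not particular to this list. None rose without KO library 1 or 3, and 4 rose with the values as deposited. Nudt18 had the largest fall, from 16.9 ± 8.8 to 2.56 ± 0.489 (−2.41 ± 0.32, limma adjusted p = 0.00159), and it also fell in testis, from 10.5 ± 3.18 to 3.49 ± 0.185 (−1.43 ± 0.20, adjusted p = 0.00668). In testis 4 of 20 fell and 2 rose; the falls became 2 without Het library 1 and 1 without Het library 2 or any 1 KO library, and the rises 1 without Het library 1 and 0 without these others.

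Among 5 tested complement regulators in spermatocytes 1 fell and 1 rose. Cd55b fell from 16.1 ± 9.16 to 1.61 ± 0.178 (−2.85 ± 0.34, limma adjusted p = 0.000955). C1qbp, whose protein binds complement C1q and is mostly mitochondrial, rose by a log2 difference of 0.54 ± 0.16 (limma adjusted p = 0.0339), a call that ended with no filter (0.089) and without Het library 1 or any 1 KO library (0.0503 to 0.123). In testis 1 of 7 fell, Cd55b, and 0 rose; 0 fell without Het library 2 or KO library 2 or 3.

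**Figure D4:**
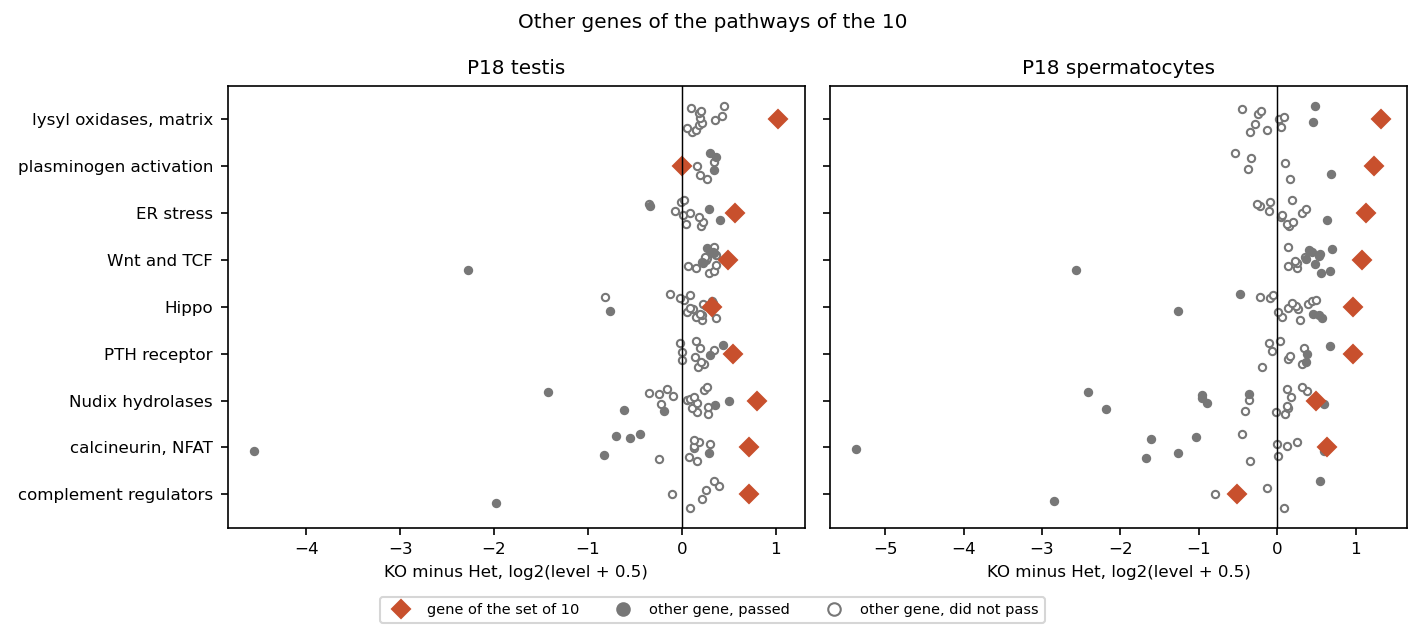
KO minus Het difference of log2(level + 0.5) for the other genes of 9 pathway lists (circles, filled if past the limma threshold) and for the gene of the 10 that belongs to each list (red diamonds), in P18 testis and P18 spermatocytes. In spermatocytes the filled circles of the Wnt and TCF list lie to the right of 0 except Lef1, at −2.57, and those of the calcineurin list lie to the left except Ppp3r1, at 0.59.

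Genes next to the 10 on the chromosome passed the test in both directions. The 20 nearest protein-coding neighbours leave out genes that overlap 1 of the 10, Pias3 at Nudt17 and Myl3 at Pth1r. Pias3 rose in spermatocytes, as given above, and Myl3 was not tested. Pias3 also rose in P18 testis (0.29 ± 0.08, limma adjusted p = 0.0368), a call that ended without any 1 library. Of the 20, 12 were tested in spermatocytes, where 1 rose and 2 fell. In P18 testis 15 were tested, of which 3 rose and 3 fell, and at P14 17 were tested and 0 passed. Over all genes tested, 9.24% rose and 25.5% fell in spermatocytes and 6.9% rose and 17.4% fell in testis, and nothing particular to the neighbours is read from so few. In spermatocytes Npc1, a cholesterol transporter of the lysosome 15962 bases from Ankrd29, rose from 4.28 to 6.68 (0.59 ± 0.12, limma adjusted p = 0.00902). Prss42, a serine protease gene of the testis 51021 bases from Pth1r, fell from 16.4 to 3.22 (−2.13 ± 0.28, adjusted p = 0.00156), and Polr3c, a subunit gene of RNA polymerase III 2928 bases from Nudt17, fell from 26.5 to 16.7 (−0.64 ± 0.11, adjusted p = 0.00508). In testis Haus4, 12856 bases from Ajuba, fell from 22.8 to 15.4 (−0.55 ± 0.09, limma adjusted p = 0.00881). The 3 rises in testis, Pyroxd2 next to Loxl4, Vcl next to Plau and Ncmap next to Rcan3, became 0 when Het library 2 or KO library 1 or 3 was left out and 1 when KO library 2 was. The 3 falls there, Haus4, Prss42 and A930018P22Rik, became 1 without Het replicate 2 or any 1 KO library. A930018P22Rik (1.66 in Het and 0.652 in KO testis) passed the filter through its Het libraries and was not tested without any 1 of them. The closest neighbour of Loxl4, R3hcc1l at 1639 bases, was at 4.01 in Het and 3.68 in KO testis and did not pass (adjusted p = 0.551).

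**Figure D5:**
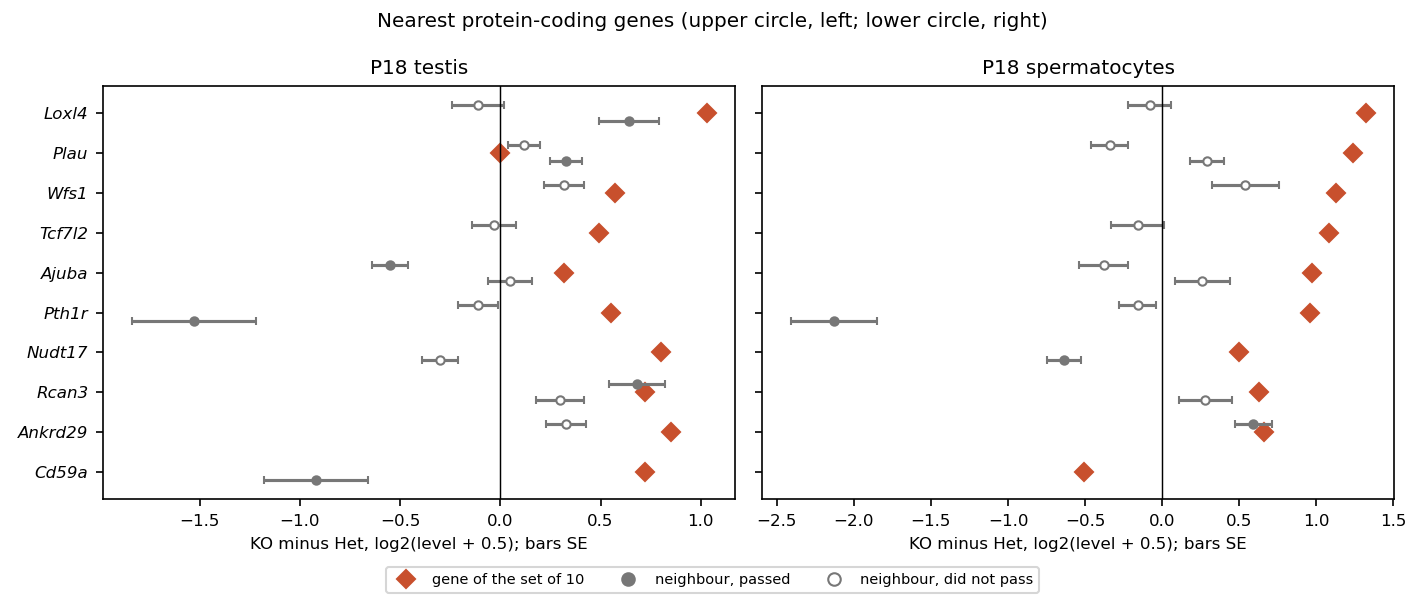
KO minus Het difference of log2(level + 0.5) for each of the 10 genes (red diamonds) and for its nearest protein-coding gene on the left (upper circle) and right (lower circle), filled if past the limma threshold, with bars for the SE of the fit. Genes that were not tested, or that overlap 1 of the 10, are not drawn. Prss42 beside Pth1r, at −1.53 in testis and −2.13 in spermatocytes, is the leftmost circle of each panel.

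Markers of other cell types also differed between genotypes at P18. For these counts, the shares over all genes tested were 6.9% risen and 17.4% fallen in testis. In spermatocytes they were 9.24% and 25.5%. The marker lists were chosen with earlier results of these data known, so the counts are a description. The spermatogonial list holds Sohlh2 and the leptotene and zygotene list Ctcfl, both named above among the largest rises. In KO testis 7 of 15 Sertoli markers rose and 0 fell (summed level 988 to 1230 in Het and 1310 to 1380 in KO), 7 of 8 tested macrophage markers rose (46.7 to 55.4 and 69.6 to 78.9) and 5 of 14 tested spermatogonial markers rose and 1 fell (217 to 267 and 285 to 319). Leydig markers rose in 2 of 9, and 11 of 11 tested pachytene markers fell (473 to 1200 in Het and 80.3 to 88.9 in KO). In spermatocytes 0 of 13 tested Sertoli markers passed, whereas 6 of 15 spermatogonial markers rose and 1 fell (341 to 446 in Het and 558 to 655 in KO), and 1 of 5 tested macrophage markers rose (7.38 to 14.2 and 15.8 to 16.7). Of 12 leptotene and zygotene markers, 5 rose and 1 fell in testis, where their summed levels overlapped between genotypes, and 3 rose and 1 fell in spermatocytes. Peritubular myoid markers (6 genes) summed to 72.3 to 193 in Het and 58.8 to 204 in KO spermatocytes, and 0 of 6 passed. Without 1 library, a check added after the data were seen, the risen Sertoli markers in testis numbered 0 (Het library 2 or any KO library), 3 (Het library 1) or 12 (Het library 3), the macrophage markers 1 (Het library 2, KO library 2 or 3), 3 (Het library 1 or KO library 1) or 4 (Het library 3). The spermatogonial markers numbered 0 (KO library 2 or 3), 1 (Het library 2), 3 (Het library 1 or KO library 1) or 8 (Het library 3), and the Leydig markers 3 without Het library 3 and 0 without any other. The risen leptotene and zygotene markers in testis numbered 2 (Het library 2, KO library 2 or 3), 3 (Het library 1 or KO library 1) or 5 (Het library 3), and 0 fell without Het library 2 or KO library 2 or 3. The fallen pachytene markers numbered 6 (Het library 1 or 2), 7 (Het library 3) or 10 (any KO library). A marker at 1 or more only in its 3 Het libraries enters the test through the group where it is high. It is not tested when 1 of these libraries is left out. The lower counts without a Het library may thus hold untested markers and are not read as weaker falls. In spermatocytes the risen spermatogonial markers numbered 4 (Het library 1), 5 (Het library 2 or 3) or 3 (any KO library). The ranges of the summed Sertoli, macrophage and spermatogonial levels in testis did not overlap between genotypes with all libraries. In P14 testis 3 of 7 tested pachytene markers fell (summed level 52.0 to 81.7 in Het and 17.2 to 24.7 in KO). Over all genes tested at P14, 0.166% fell. No marker of the other lists passed at P14. The part of these shifts, at either age, in the differences of the 10 genes was not tested.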

How the data were processed

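Poly(A) RNA was isolated from Trizol extracts and made into libraries with NEBNext kits, per the labels' protocols. The authors deposited 1 table per library with gene symbols and RPKM (P14 testis, P18 spermatocytes) or FPKM (P18 testis), per the file headers. The submitters' processing notes name the build GRCm38 and the tools STAR 2.6.1a, CASAVA 1.9, edgeR 3.28.1 and featureCounts but not the role of each, and the use of strand is not given in the sources used here. The deposited values hold no counts. The size of 1 read was read from the low values and gene lengths of GENCODE M21 (93.67% to 99.2% of low values whole, within 0.02 reads) and gave total reads. Symbols shared by several genes (95 at P14, 107 at P18) were left out.

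Rescaling used trimmed means of M values (trims of 30% and 5%). Genes at 1 or more in at least 3 of 6 libraries were tested with limma 3.58.1 (R 4.3.3) on log2(value + 0.5), with trend and robust moderation, two-sided, Benjamini-Hochberg over all genes tested, threshold 0.05; the code was checked on simulated data. Level differences are on that scale and understate the change of low genes. 1 read on 1 kb was worth 0.0473 to 0.108 units, which limits low genes.

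The 10 genes, the pathway lists and the marker lists were chosen with earlier results of these data known. Named besides the 10 were the largest rise and fall past the threshold in each list, the nearest protein-coding neighbours and the 3 most correlated genes of each. The 3 largest rises outside the 10 in each P18 comparison, and Cd59b, were also named. Not every gene so named is printed, and others are said to be outside the rule. The values of 1 listed gene are not reported here. Alternatives were other scalings, pseudocounts, filters, limma-voom, a replicate block and leaving out each library. Scripts used Python 3.11.15, numpy 2.4.6, pandas 2.3.3 and matplotlib 3.10.9.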

Additional observations from a re-analysis of the deposited data

How the results depend on the processing

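None of the 10 genes that were tested passed at P14 under any alternative, and no P18 difference of a pathway gene or neighbour that passed and was refitted by name changed sign. Among genes that had not passed, signs changed for Loxl1 in spermatocytes (0.08 with values as deposited, −0.51 to 0.27 without 1 library), Loxl3 there (−0.01 without Het library 1), Ppp3cb there (−0.04 to 0.06 without 1 library) and Lox in testis (−0.20 to 0.44 without 1 library). The P18 log2 differences of the 10 kept their sign under every alternative scaling, pseudocount, filter and test in which they were fitted, except Plau in testis. Plau in testis was near 0 (−0.02 to 0.07 under these, −0.18 to 0.19 without 1 library). The filter of at least 3 gave no fit for Loxl4, Ankrd29 and Plau in both P18 sets. It also gave none for Nudt17 in testis or for Tcf7l2 and Cd59a in spermatocytes. For low genes they moved with the pseudocount: Loxl4 in testis was 1.49 with 0.1 and 0.75 with 1, and Ankrd29 1.22 and 0.62. Counts depended more on the settings. Pathway genes that rose in P18 testis (15) numbered 31 with values as deposited, 3 with no filter and 29 with limma-voom. In spermatocytes (22) they numbered 45 as deposited and 10 with no filter. At P14 limma-voom called 1 pathway gene lower. In testis the Nudix rises (2) and falls (4) numbered 4 and 2 as deposited and 1 and 1 with no filter, and the rises of the Wfs1 list (2) 4 and 0. Neighbours that rose in P18 testis (3) numbered 5 as deposited, 1 with a filter of at least 3 and 6 with limma-voom, and in spermatocytes (1) 3 as deposited, 2 with median-of-ratios scaling and 2 with no filter.

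Without 1 library, pathway genes that rose numbered 0 to 19 in P18 testis and 5 to 20 in spermatocytes, and those that fell 4 to 12 and 11 to 16. Neighbours that rose in testis numbered 0 to 3 and those that fell 1 to 3, and in spermatocytes 1 and 2 in each such fit. Each of these fits has fewer samples and tests fewer genes.

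With the replicate number as a block, pathway genes that rose in P18 testis numbered 6 and neighbours 1. Same-numbered Het and KO libraries had residual correlations of 0.234, 0.057 and 0.093 for spermatocytes. They were 0.024, 0.004 and −0.029 for P18 testis and 0.079, 0.087 and 0.099 for P14 testis. Each library correlated best with its own number at P14 and in spermatocytes but not in P18 testis. The main fits did not pair the samples by number, and whether the numbers mark samples handled together was not tested. Depth limits Loxl4, Ankrd29, Plau and, in spermatocytes, Cd59a, which rest on few reads.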
